A study of Homo sapiens with 18 samples.

Results

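The genes described here are 9 members of the WNT signaling pathway: the ligands WNT2, WNT5A, WNT5B and WNT16, the secreted antagonists SFRP1, DKK1 and DKK3, and the intracellular proteins AXIN2 and APC. They were taken by name from a list of members, and all 9 were found among the 38716 gene symbols in the tables. Their mRNA and their ribosome footprints were followed in IMR90 cells, a line of human fetal lung fibroblasts, in 3 states. Young cells were proliferating, low-passage cultures. Old cells came from the same kind of culture passaged until they stopped dividing (replicative senescence). ICM cells were treated with inflachromene (ICM), a small molecule that binds HMGB1 and HMGB2 and that the study used to induce a senescence-like state. Each state was grown as 3 independent cultures, and each lysate gave 1 Ribo-seq and 1 poly(A) mRNA-seq library, so that 18 libraries were available. All cultures are of 1 cell line, kept as single isolates under continuous passage, and the labels name neither a dose nor a vehicle. Young cells divide and the other groups do not, so growth state and treatment or passage cannot be told apart.

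WNT proteins are lipid-modified secreted ligands that bind Frizzled receptors. In the canonical branch, the LRP5 and LRP6 co-receptors pass the signal on, the destruction complex of APC, AXIN, GSK3 and CSNK1A1 is held back, and beta-catenin reaches the nucleus to switch on target genes with TCF and LEF factors. AXIN2 and DKK1 are such target genes, and both products dampen the pathway again. WNT5A and WNT5B act mostly through beta-catenin-independent branches with receptors such as ROR2. SFRP1 binds WNT ligands outside the cell, DKK1 blocks LRP5 and LRP6, and DKK3, despite its name, does not act on LRP6 as DKK1 does. In the lung, WNT2 and WNT5A are made by the mesenchyme, to which fibroblasts belong.

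Because DKK1 is a known beta-catenin target whose mRNA rose in both arrested states, the promoters of the genes were searched for the core letters bound by TCF and LEF factors, CTTTGA and CTTTGT, on either strand. The mRNA of AXIN2, the other target named above, fell in old cells (log2 change -1.70). In ICM against young cells it did not pass the test (0.28). The cause of the DKK1 rise was not tested. The RefSeq promoter table (GRCh38.p14, 250 bases before to 50 bases after each start site) held 9 promoters of 6 members. AXIN2, DKK3 and SFRP1 were not among these 6, so their promoters were not searched. WNT2, WNT5A, WNT5B, WNT16 and APC had no match, and DKK1 had 3. The windows of 26 bases around the DKK1 matches are shown with the match in capitals, read along the DKK1 strand. In the first the match reads CTTTGA on the opposite strand.
DKK1 chr10:52314122-52314147: gtgaagagtgTCAAAGgccccccttc
DKK1 chr10:52314176-52314201: cctcccagcgCTTTGAaatcccatcc
DKK1 chr10:52314195-52314220: cccatcccggCTTTGTtgtctccctc
The matches began 149, 95 and 76 bases before the start site. Of the 35116 promoters in the table, 12.9% held CTTTGA, 16.1% held CTTTGT and 26.2% held either, so that a match by itself is common.

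On GRCh37 (GENCODE annotation), WNT2 lies at chr7:116915505-116963206 on the minus strand and WNT16 further along the same chromosome, at chr7:120965421-120981158 on the plus strand. WNT5A lies at chr3:55499743-55524567 (minus) and WNT5B at chr12:1639057-1756378 (plus). DKK1 lies at chr10:54074041-54077802 (plus), DKK3 at chr11:11977754-12031316 (minus) and SFRP1 on the minus strand of chromosome 8. AXIN2 lies at chr17:63524681-63557766 (minus) and APC at chr5:112043215-112181936 (plus). The reads counted for these genes fell in annotated exons, divided into 5′ UTR, CDS and 3′ UTR.

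The mRNA-seq libraries held 7902427 to 14144455 reads on protein-coding genes. The Ribo-seq libraries were much shallower, with 46239 to 1718521 CDS reads, and the 3 ICM libraries held 225041, 78980 and 46239. Ribo-seq libraries of young replicate 1 and old replicate 2 stood apart: only 34.4% and 15.0% of all their reads were in CDS, against 54.7% to 88.8% in the other libraries, so footprint results are also given without these 2 lysates. All 9 fibroblast markers were expressed in every state, but their summed mRNA level lay between 30248.9 and 36268.9 CPM (reads scaled to a common library size) in young and old libraries and between 13806.6 and 14312.3 CPM in ICM libraries. The part of this lower sum, or of the depth of the libraries, in the results for the 9 genes was not tested. Of 6 epithelial markers EPCAM, CDH1 and SFTPC were at 0 to 1.05 CPM in all 9 mRNA-seq libraries, but KRT18 (27.4 to 284 CPM), KRT8 (16.2 to 32.4 CPM) and KRT19 (0.225 to 16.3 CPM) were not, and the sum of all 6 was 312 to 333 CPM in young, 242 to 265 CPM in old and 44.6 to 50.6 CPM in ICM libraries. Of 5 endothelial markers CDH5 was at 0 and KDR and PECAM1 stayed under 1 CPM, while VWF reached 3.90 CPM and TEK stood at 47.4 to 106 CPM, and the sum was 55.3 to 63.6, 94.7 to 107 and 51.9 to 60.3 CPM in young, old and ICM libraries. Of 5 leukocyte markers CD3E was at 0 and PTPRC, CD14 and CD79A stayed under 1 CPM, while CD68 stood at 19.4 to 65.2 CPM, and the sum was 19.9 to 21.7, 32.5 to 35.7 and 54.2 to 66.2 CPM. The part of these markers in the results was not tested either. In libraries made from many cells, a change in the share of expressing cells and a change in mRNA per cell cannot be told apart.

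Among the ligands, the mRNA-seq levels of WNT2 and WNT16 went in opposite directions in old cells. WNT2, a ligand of the canonical branch, stood at 45.4, 45.5 and 36.9 CPM in the 3 young libraries, at 6.13, 6.97 and 5.19 CPM in the old and at 1.88, 2.68 and 1.61 CPM in the ICM libraries. The 3 groups did not overlap, and every ICM library was below every old library. WNT2 fell 6.90-fold in old against young cells (log2 change -2.79, SE 0.12) and 20.8-fold in ICM against young cells (log2 change -4.38, SE 0.15). Its level in ICM cells was also below that in old cells (log2 change -1.59, SE 0.21, adjusted p = 7.78e-07 by edgeR's quasi-likelihood test with Benjamini-Hochberg adjustment). WNT16, a ligand known to be secreted by fibroblasts after DNA damage, was barely present in young cells, with 0.745, 0.959 and 1.14 CPM from 6, 11 and 12 reads. It reached 64.1, 68.1 and 63.9 CPM in old cells and 5.03, 4.35 and 4.83 CPM in ICM cells. WNT16 mRNA rose 67.0-fold in old cells (95% interval 55.1 to 81.4) and 4.88-fold in ICM cells (95% interval 3.57 to 6.68). ICM cells held 13.7-fold less WNT16 mRNA than old cells (log2 change -3.78, SE 0.10).

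WNT5A, the most abundant of the 4 ligands, read 340, 368 and 401 CPM in young, 738, 754 and 809 CPM in old and 530, 517 and 531 CPM in ICM libraries. It rose in both arrested states, by 1.05 (SE 0.07) on the log2 scale in old and by 0.51 (SE 0.07) in ICM cells, and the ICM level was below the old one (log2 change -0.54, SE 0.07). Its close relative WNT5B did not follow it. WNT5B stood at 77.2, 71.1 and 74.0 CPM in young libraries, at 265, 228 and 260 CPM in old and at 40.0, 37.2 and 39.0 CPM in ICM libraries. WNT5B mRNA therefore rose in old cells (log2 change 1.76, SE 0.07) and fell in ICM cells (log2 change -0.93, SE 0.08), and ICM against old cells differed by 6.46-fold (log2 change -2.69, SE 0.07, adjusted p = 8.01e-19).

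The antagonists also split. SFRP1 read 247, 258 and 278 CPM in young libraries, 453, 451 and 453 CPM in old and 78.3, 77.6 and 79.4 CPM in ICM libraries. It rose in old cells (log2 change 0.79, SE 0.06) and fell in ICM cells (log2 change -1.73, SE 0.06), which left a 5.77-fold gap between ICM and old cells. DKK3 read 503, 491 and 467 CPM in young, 1482, 1436 and 1375 CPM in old and 585, 626 and 586 CPM in ICM libraries. Its rise was 2.94-fold in old cells and 1.23-fold in ICM cells (log2 changes 1.55 and 0.30, SE 0.06 each). DKK1 stood at overlapping levels in old and ICM cells. Its young libraries read 34.5, 34.2 and 34.3 CPM, its old libraries 57.6, 65.5 and 57.9 CPM and its ICM libraries 63.0, 66.2 and 52.7 CPM. DKK1 rose by 0.82 (SE 0.09) on the log2 scale in old and in ICM cells alike, and the difference between ICM and old cells was 0.00 with a 95% interval of -0.16 to 0.17.

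AXIN2, a scaffold of the destruction complex and a common readout of canonical signaling, had few reads: 21, 40 and 24 in young, 7, 9 and 13 in old and 57, 34 and 33 in ICM libraries. These correspond to 2.61, 3.49 and 2.29 CPM in young, 0.753, 0.667 and 1.21 CPM in old and 4.28, 3.15 and 2.80 CPM in ICM libraries, so that the old libraries lay below all others. AXIN2 fell in old against young cells (log2 change -1.70, SE 0.30, adjusted p = 4.24e-05) and was higher in ICM than in old cells (log2 change 1.98, SE 0.28, adjusted p = 2.35e-06). Between ICM and young cells the log2 change of 0.28 had a 95% interval of -0.18 to 0.74 and did not pass the test. APC, the large scaffold that takes part in the degradation of beta-catenin, had small changes. Its libraries read 39.5, 39.9 and 43.4 CPM in young, 48.0, 47.7 and 48.4 CPM in old and 38.4, 40.1 and 40.8 CPM in ICM cells. APC mRNA was 1.17-fold higher in old than in young cells (adjusted p = 0.00711) and 1.21-fold lower in ICM than in old cells (adjusted p = 0.00167), while ICM and young cells differed by -0.04 on the log2 scale (95% interval -0.19 to 0.10).

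**Figure D1:**
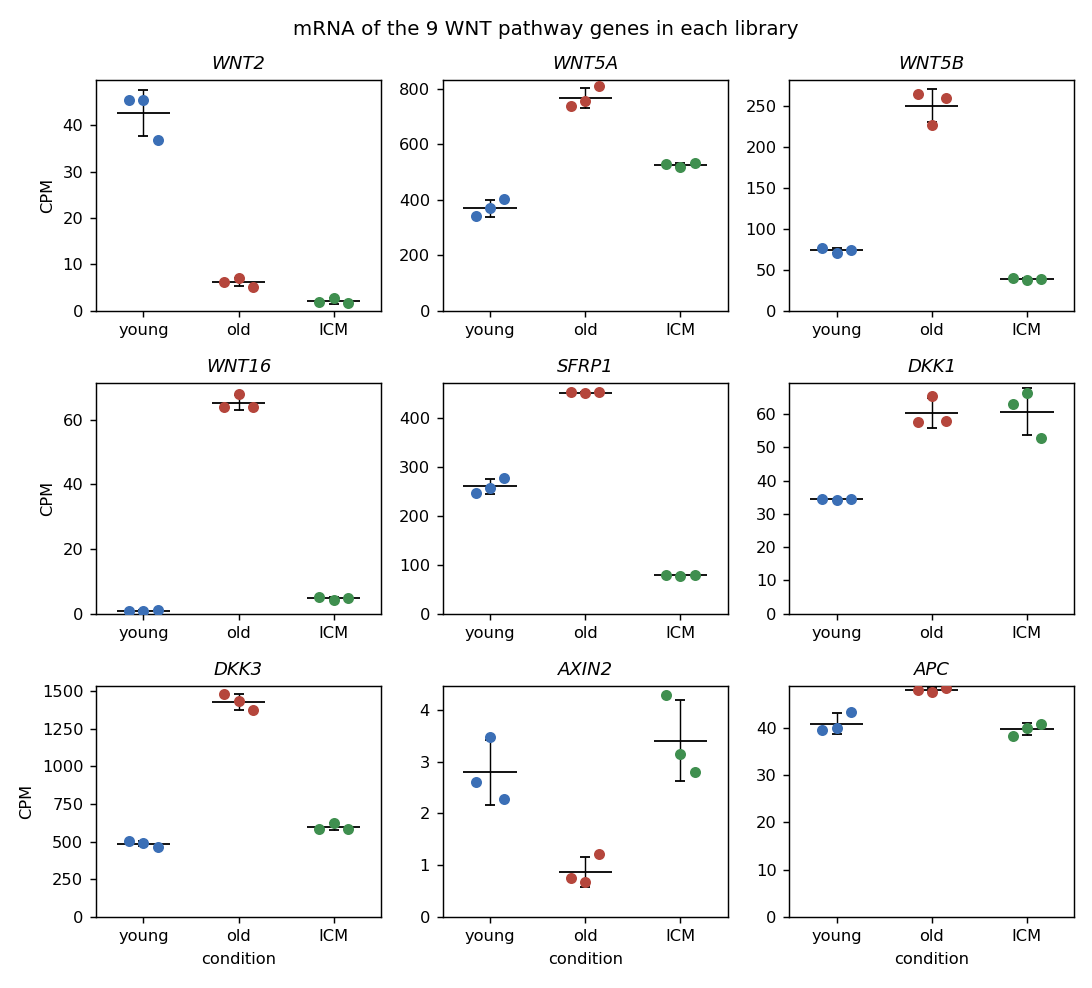
mRNA level in CPM (linear axis from 0) of each of the 9 genes in young, old and ICM cells. Points are the 3 libraries of a state, the horizontal line is their mean and the bars are ± 1 SD. WNT16 stands at 63.9 to 68.1 CPM in the old libraries and at 5.03 CPM or less in the others, and WNT2 is highest in the young libraries.

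In old against young cells, 9 of 9 members passed the test in mRNA-seq (adjusted p under 0.05), 7 higher and 2 lower, where 66.1% of the 13173 genes tested did (32.4% higher, 33.7% lower). In ICM against young cells 7 of 9 passed, 4 higher and 3 lower, against a background of 71% (34.9% higher, 36.1% lower). In ICM against old cells 8 of 9 passed, 1 higher (AXIN2) and 7 lower, against 63.3% (30.7% higher, 32.6% lower). The median log2 change of the members was 0.82, 0.28 and -1.26 in these comparisons, and the median of all genes tested was -0.01 in each. Most genes were past the threshold, so the count of members past it says little. The libraries of the groups did not overlap for 9, 7 and 8 members, where 67.1%, 74.5% and 66.3% of all genes tested did not. The comparisons with young cells share the young libraries, so they are not independent of each other.

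Ribosome footprints on the CDS were dense enough to test 7 of the 9 members. WNT2 and AXIN2 did not pass the filter on low counts. WNT2 had 2, 17 and 30 footprints in young, 16, 2 and 2 in old and 0 in every ICM library. Against the 3 counts that a total of 0 allows over the group, WNT2 footprint CPM pooled over the group were at least 2.33-fold lower in ICM than in young cells. Where the filter was left out, WNT2 passed the test between ICM and young cells (adjusted p = 0.0212). In fits without ICM replicate 1 or ICM replicate 2, where it also entered, it did not (adjusted p = 0.241 and 0.0624). AXIN2 had 5, 2 and 2 footprints in all in young, old and ICM cells, too few for a comparison.

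WNT5A footprints read 436, 452 and 429 CPM in young, 1108, 865 and 1032 CPM in old and 695, 587 and 571 CPM in ICM libraries, without overlap between the groups. They rose in old cells (log2 change 1.23, SE 0.17), and the ICM level was below the old one (log2 change -0.70, SE 0.19, adjusted p = 0.00949). That last call was lost without old replicate 1 (adjusted p = 0.0937) and with all libraries thinned to the shallowest (0.0636). The difference between ICM and young cells was 0.53 (SE 0.20, adjusted p = 0.0436), and it did not stay past the threshold in 13 of 16 alternative settings, among them the fit without the 2 lysates that stand apart (0.41, adjusted p = 0.161). WNT5B footprints read 198, 75.1 and 73.2 CPM in young libraries, the first of which held 10 reads, then 329, 302 and 353 CPM in old and 128, 40.9 and 137 CPM in ICM libraries. They rose in old cells (log2 change 2.08, SE 0.23) and were lower in ICM than in old cells (log2 change -1.64, SE 0.31). Between ICM and young cells WNT5B footprints differed by 0.44 (95% interval -0.31 to 1.19), which did not pass the test.

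WNT16 footprints were 0, 0 and 3 reads in young and 1, 0 and 2 reads in ICM libraries, against 125, 6 and 36 reads in old libraries (88.9, 121 and 73.9 CPM). WNT16 passed the filter on low counts through its old libraries, so both its comparisons with old cells follow in part from that filter. The rise in old cells (log2 change 5.77, SE 0.60) rests on 3 young reads in all, and the difference between ICM and young cells could not be seen at this depth. ICM against old cells differed by -3.14 (SE 0.77, adjusted p = 0.00362), a call that was lost without ICM replicate 1 (adjusted p = 0.0882).

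**Figure D2:**
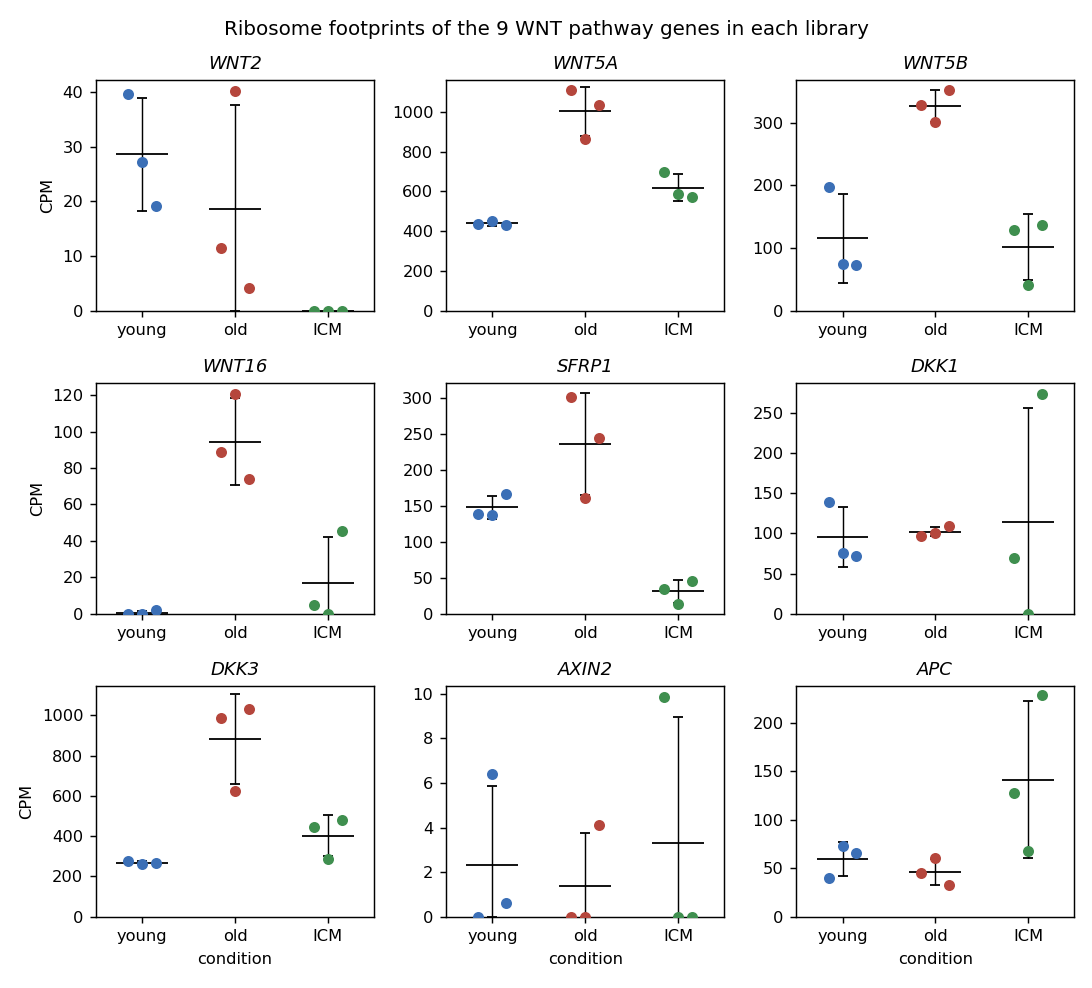
Ribosome footprints on the CDS in CPM (linear axis from 0) of each of the 9 genes in young, old and ICM cells. Points are the 3 libraries, the line is their mean and the bars are ± 1 SD, cut at 0. WNT16 footprints reach 73.9 to 121 CPM in the old libraries, WNT2 has none in the ICM libraries, and the DKK1 points of ICM cells spread from 0 to 274 CPM.

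SFRP1 footprints fell in ICM cells: they read 139, 137 and 167 CPM in young, 302, 161 and 244 CPM in old and 34.5, 13.6 and 45.7 CPM in ICM libraries, the latter from 10 reads in all. ICM was below young (log2 change -2.29, SE 0.44) and below old cells (log2 change -3.09, SE 0.41), with no overlap in either case. The rise in old cells (log2 change 0.80, SE 0.20, adjusted p = 0.00199) was lost in 5 of 15 alternatives, with DESeq2 (adjusted p = 0.224), with a replicate block (0.185) and without young replicate 2 (0.173), young replicate 3 (0.0725) or old replicate 1 (0.189). DKK3 footprints read 277, 264 and 265 CPM in young, 987, 624 and 1030 CPM in old and 443, 286 and 480 CPM in ICM libraries. They rose in old cells (log2 change 1.82, SE 0.19), were lower in ICM than in old cells (log2 change -1.21, SE 0.22), and differed by 0.61 between ICM and young cells (95% interval 0.13 to 1.09, adjusted p = 0.0514). DKK1 passed in no footprint comparison. Its ICM libraries held 14, 0 and 12 footprints, and the 95% interval of the ICM against young change ran from -0.83 to 1.08 on the log2 scale.

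Footprints on APC read 39.6, 73.5 and 66.2 CPM in young libraries (2, 46 and 104 reads), 45.5, 60.4 and 32.8 CPM in old (64, 3 and 16 reads) and 128, 68.2 and 228 CPM in ICM libraries (26, 5 and 10 reads). Every ICM library was above every old one, and footprints were 3.05-fold higher in ICM than in old cells (log2 change 1.61, SE 0.39, adjusted p = 0.00387). This call was lost without ICM replicate 1 (adjusted p = 0.0777). Against young cells APC footprints changed by 0.93 in ICM (adjusted p = 0.0577) and by -0.68 in old cells (adjusted p = 0.0773), neither past the threshold.

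In old against young cells, 5 of the 7 members tested passed in footprints, all higher, where 36.3% of the 4643 genes tested did (19.3% higher, 17% lower). In ICM against young cells 2 passed, 1 higher and 1 lower, against 26.6% (13.7% higher, 12.9% lower). In ICM against old cells 6 passed, 1 higher (APC) and 5 lower, against 13.4% (5.79% higher, 7.62% lower). The groups did not overlap for 4, 3 and 6 of these 7 members, where 38.9%, 30.4% and 22.9% of all genes tested did not. WNT16, which passed the filter through its old libraries, is in the counts of both comparisons with old cells. Without the 2 lysates that stand apart the counts were 5, 2 and 6 again, where 2154, 1553 and 873 of the 8113 genes tested passed. In ICM against young cells WNT5A was then lost, and WNT2, which passed the filter in that fit, was gained with an adjusted p of 0.0299.

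Translational efficiency, the footprint change beyond the mRNA change of the same gene, was tested as an interaction over all 18 libraries. It passed for 1 member in 1 comparison: APC rose by 1.92 on the log2 scale in ICM against old cells (SE 0.42, 95% interval 1.07 to 2.76, adjusted p = 0.0286), where 0.346% of the 4618 genes tested passed. This call was lost without old replicate 1 (adjusted p = 0.264), old replicate 3 (0.308), ICM replicate 1 (0.1504) or ICM replicate 3 (0.0890), with values between 1.59 and 2.12. It remained without the 2 lysates that stand apart (1.80, adjusted p = 0.0329). In ICM against young cells no member passed with edgeR and the lysate block, against 2.38% of all genes, although 2 had an unadjusted p under 0.05. Without the block edgeR called 1 (WNT5B, adjusted p = 0.0141), and DESeq2, also run without a lysate term, called 2 (WNT5B and APC). WNT5B was the nearest in the fit with the block, with 1.32 (SE 0.40, adjusted p = 0.0665): its mRNA was lower in ICM than in young cells and its footprints were not. In old against young cells no member passed with edgeR and the lysate block either, against 1.43% of all genes, and 1 had an unadjusted p under 0.05 (APC, -0.89, SE 0.33, adjusted p = 0.240). Without a lysate term APC was called by edgeR (adjusted p = 0.0173) and by DESeq2 (0.00392). For the other members tested, the intervals in old against young cells all held 0 and differed in width. The narrowest was -0.16 to 0.57 for WNT5A and the widest -2.10 to 2.43 for WNT16.

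**Figure D3:**
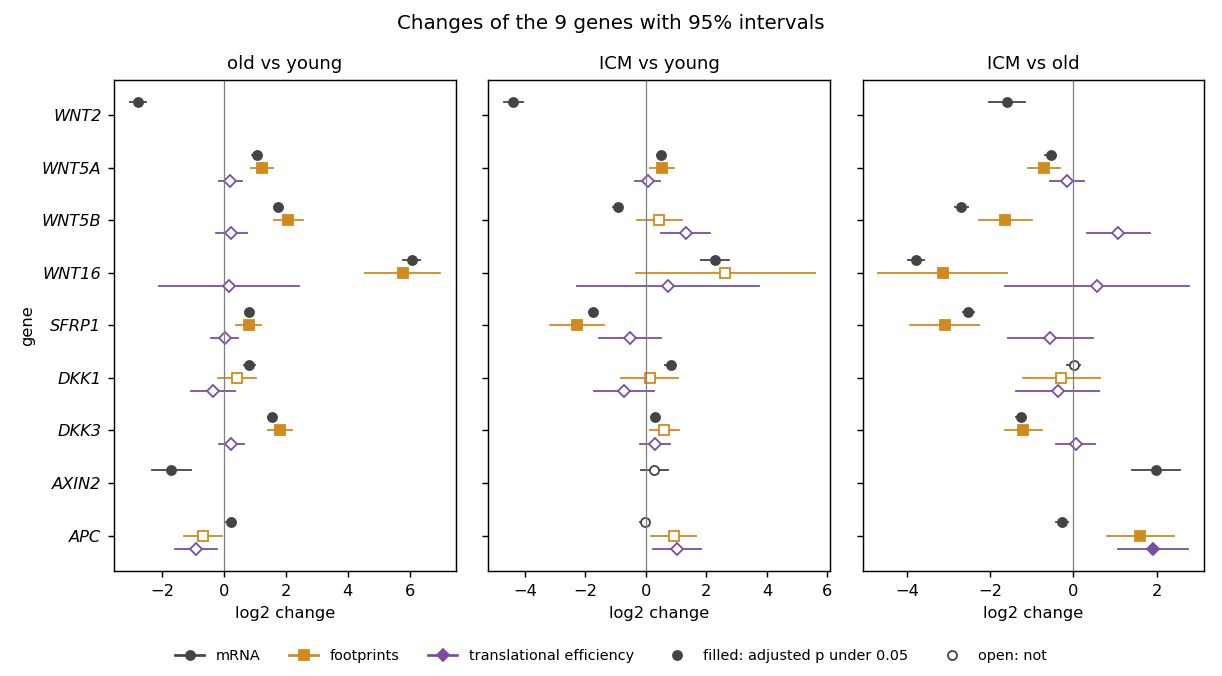
Log2 change of mRNA, footprints and translational efficiency of the 9 genes in old against young, ICM against young and ICM against old cells. Lines are 95% intervals, filled symbols passed an adjusted p under 0.05, open ones did not, and genes without a symbol were not tested in that measure. APC in ICM against old cells has mRNA at -0.27 and footprints at 1.61.

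To compare genes with each other, levels were divided by the length of the coding sequence (CPM per kilobase, CDS reads of both assays). In mRNA of young cells the order was DKK3 at 222 ± 4.40 (SD, n = 3), WNT5A at 103 ± 4.22, SFRP1 at 55.7 ± 2.37, WNT5B at 37.4 ± 1.23, DKK1 at 32.3 ± 2.84, WNT2 at 24.9 ± 3.57, APC at 4.42 ± 0.0852, AXIN2 at 0.746 ± 0.191 and WNT16 at 0.622 ± 0.147. The ranges of AXIN2 and WNT16 overlapped, and no other neighbours did. In old cells DKK3 led again with 664 ± 50.02, WNT16 moved from the last to the sixth place with 35.8 ± 0.787, and WNT2 dropped to the eighth with 3.21 ± 0.806, below APC. No neighbours overlapped in old cells. In ICM cells DKK1, at 55.8 ± 7.55, took the third place ahead of WNT5B at 19.3 ± 1.16 and SFRP1 at 16.5 ± 0.786, and only WNT2 and AXIN2 at the bottom overlapped. In footprints WNT5A stood first in each state, with 385 ± 10.3 in young, 879 ± 109 in old and 542 ± 59.2 in ICM cells, ahead of DKK3 with 256 ± 7.22, 838 ± 213 and 384 ± 97.8. Their ranges overlapped in old cells only.

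The mixture of ligands changed between the states. Of the summed CDS mRNA of all 19 WNT genes per kilobase, WNT5A made up 61.1% ± 2.64 in young, 56.9% ± 1.31 in old and 85.4% ± 1.23 in ICM cells (SD, n = 3). WNT5B made up 22.2% ± 0.668, 32.5% ± 0.220 and 10.8% ± 0.707. WNT2 contributed 14.8% ± 2.09 in young cells and 0.829% ± 0.260 in old cells, and WNT16 contributed 9.15% ± 1.20 in old cells and 1.54% ± 0.153 in ICM cells. The sum itself was 168 ± 0.476 CPM per kilobase in young, 396 ± 47.5 in old and 178 ± 2.31 in ICM cells. In footprints WNT5A took 74.7% ± 9.80, 67.7% ± 3.33 and 81.7% ± 6.46 of the ligands. Among 17 secreted or membrane antagonists, SFRP1 held 17.3% ± 0.868 of the mRNA in young cells, 11.1% ± 0.741 in old and 4.51% ± 0.295 in ICM cells. DKK1 held 10.02% ± 0.759, 7.07% ± 0.972 and 15.2% ± 1.61, and DKK3 held the most in each state (68.9%, 80.7% and 78.4%). The lower shares of SFRP1 and DKK1 in old cells were not lower levels. Per kilobase, SFRP1 mRNA rose from 55.7 CPM in young to 91.8 CPM in old cells and DKK1 from 32.3 to 57.8 CPM. DKK3 rose more, from 222 to 664 CPM.

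**Figure D4:**
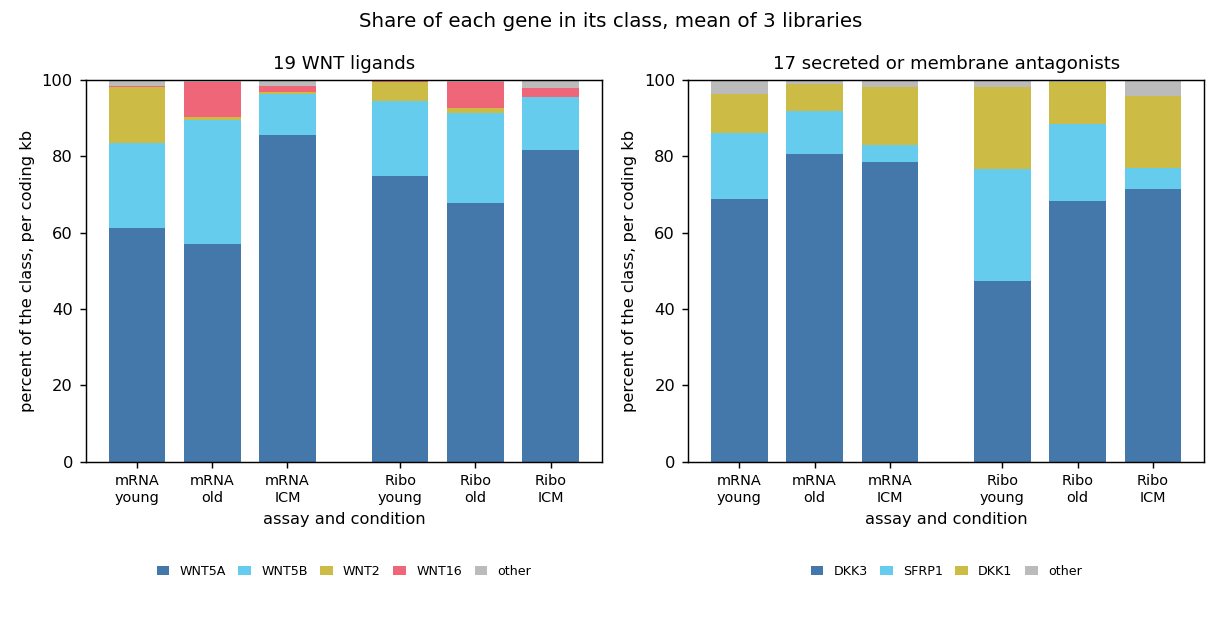
Share of each gene in the summed level of its class, in percent of CPM per coding kilobase, for CDS reads of mRNA-seq (left bars of each panel) and Ribo-seq (right bars), as means of 3 libraries. The left panel holds 19 WNT ligands and the right panel 17 antagonists, with all others in grey. WNT2 makes up 14.8% of the ligand mRNA in young cells and 0.829% in old cells, where WNT16 makes up 9.15%.

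Reads were also divided by their position in the transcripts. Reads on the 3′ UTR made up 75.3% ± 0.717, 74.9% ± 3.27 and 73.6% ± 4.43 of SFRP1 mRNA in young, old and ICM cells (SD, n = 3), 61.5%, 59.9% and 55.9% of WNT5A mRNA and 49.1%, 48.0% and 45.6% of DKK3 mRNA. Over all coding genes this share was 24.9%, 27.6% and 25.2%. The 5′ UTR share of WNT5A mRNA was 10.2%, 10.5% and 12.3% in the ICM libraries, above the 5.38% to 7.83% of the 6 other libraries, and that of DKK1 was 17.2%, 17.6% and 17.9% in ICM libraries against 10.2% to 15.8% in the others. The same share over all coding genes was 10.7% to 13.5% in ICM libraries and 9.25% to 12.3% in the others. In Ribo-seq, WNT5A carried 47.8, 13 and 23 footprints on its 3′ UTR in old libraries, 1, 0 and 4 in young and 0 in ICM libraries, and DKK3 carried 23, 10 and 11 in old, 1 in each young and 1, 0 and 0 in ICM libraries. Over all coding genes, 3′ UTR reads made up 3.51% to 14.8% of the reads in old Ribo-seq libraries, 1.40% to 12.4% in young and 1.77% to 3.10% in ICM libraries. In old replicates 1, 2 and 3 this share was 3.51%, 14.8% and 4.90%. Of the footprints of WNT5A, 2.88%, 22.9% and 4.31% were on its 3′ UTR in these libraries. For DKK3 they were 1.62%, 24.4% and 2.14%. Both genes were thus above the library-wide share in old replicate 2 and below it in the other old libraries. The part of this library-wide share in the counts of WNT5A and DKK3 was not tested. WNT5B carried 7, 17 and 11 footprints on its 5′ UTR in young libraries, which were 42.4%, 26.6% and 8.68% of its footprints, and 30, 2 and 4 in old libraries. None was seen in ICM libraries, where WNT5B had 35 footprints in all.

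To place the members among their partners, 99 genes of the WNT pathway were followed by role. In mRNA-seq 68 of them could be tested, and in old against young cells 30 rose and 23 fell, in ICM against young cells 21 rose and 28 fell, and in ICM against old cells 16 were higher and 29 lower. Without the members, 74.6%, 71.2% and 62.7% of the 59 other genes passed, to be read against the 66.1%, 71% and 63.3% of all genes. Both genes needed to release WNT ligands rose in old and in ICM cells: PORCN, which attaches the lipid, by 1.17 and 1.22 on the log2 scale, and WLS, which carries the ligand to the surface, by 0.77 and 0.67. A further group acts on the signal to and at beta-catenin. It also holds inhibitors such as CTNNBIP1, so its counts give no direction of signaling. Of its 13 tested genes, 10 fell and 0 rose in ICM against young cells, where 36.1% of all genes fell and 34.9% rose. The median log2 change was -0.36, against -0.01 over all genes tested. In old against young cells 8 of the 13 fell and 3 rose, where 33.7% of all genes fell and 32.4% rose, and PYGO1 was at -1.08.

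In the WNT5A branch, ROR2, a receptor kinase for WNT5A, fell in old cells (log2 change -2.29, SE 0.12) and stood higher in ICM than in old cells (1.36, SE 0.13). VANGL2, a core protein of planar cell polarity, fell from 14.1 ± 0.414 CPM in young to 0.342 ± 0.168 CPM in old cells (log2 change -5.26) and was at 5.17 ± 0.572 CPM in ICM cells. CELSR1, a cadherin of the same system, was higher in ICM cells than in young (log2 change 2.78) and old cells (3.69), and it fell in old against young cells (-0.91). PRICKLE1 fell in ICM cells (-1.32 against young, -1.64 against old), and PRICKLE2 rose in old cells (1.12). Of the Frizzled receptors, FZD8 rose in old cells (1.66) and FZD4 was 1.17 higher in ICM than in young cells. PTK7, a co-receptor, fell by 1.23 in ICM cells. APCDD1, a membrane antagonist, fell in both comparisons with young cells (-1.62 in old, -3.72 in ICM) and was lower in ICM than in old cells (-2.10).

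Among regulators of protein stability, BTRC, which marks beta-catenin for degradation, rose by 0.82 in old and by 1.17 in ICM cells. CTNNBIP1, which keeps beta-catenin from TCF factors, was lower in ICM than in old cells (-1.11), and so was TCF7L1 (-0.81). ZNRF3, which removes Frizzled receptors, was higher (1.09). In footprints 21 list genes were tested, and of the 14 that are not members 3 (21.4%) passed in old against young cells, where 36.3% of all genes did. WLS rose (1.10, SE 0.18), while ROR1 (-1.23, SE 0.43), a receptor for WNT5A, and TNKS (-0.78, SE 0.30), an enzyme that marks AXIN proteins for degradation, fell. In ICM against young cells 1 of the 14 passed, where 26.6% of all genes did: WLS rose (0.87, SE 0.20). In ICM against old cells 1 passed, where 13.4% of all genes did: ROR1 was higher (2.09, SE 0.56).

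**Figure D5:**
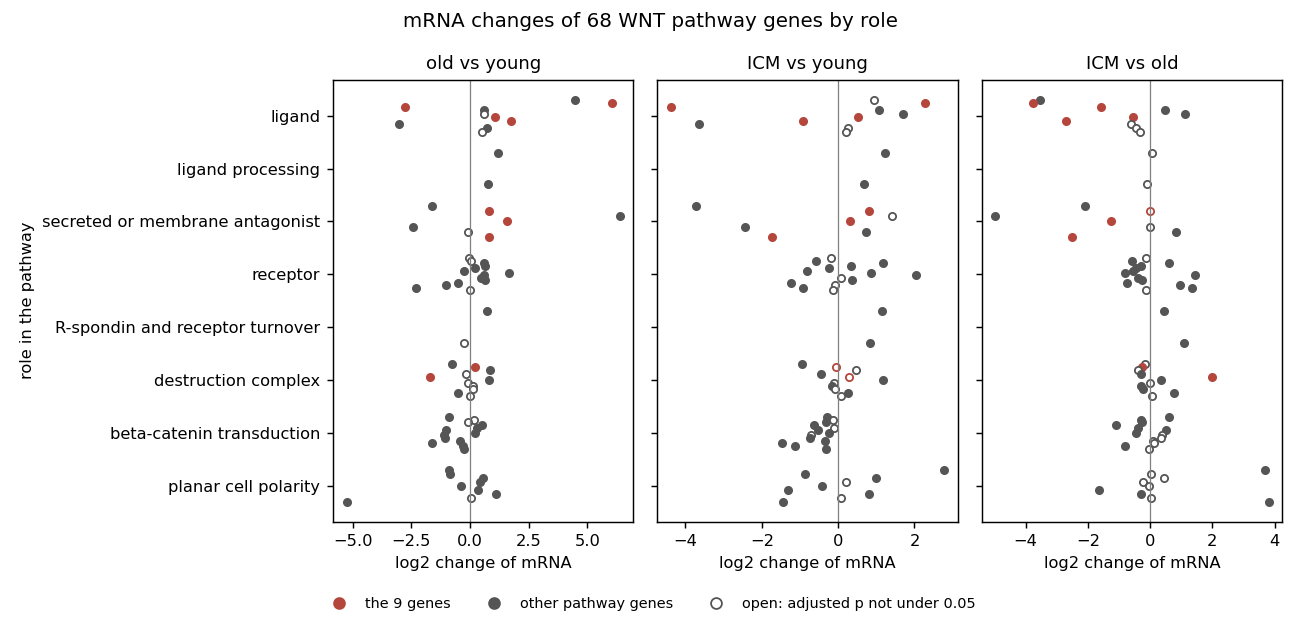
Log2 change of mRNA for the 68 WNT pathway genes tested, grouped by role, in the 3 comparisons. Each point is a gene, red points are the 9 members, and open points did not pass an adjusted p under 0.05. Among the ligands WNT16 lies at 6.07 and WNT2 at -2.79 in old against young cells.

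Finally, the genes whose mRNA profile over the 9 mRNA-seq libraries was most like that of a member were listed, among the 10809 genes whose average over these libraries reached 5 CPM. Likeness was Pearson's r of log2(CPM + 2), which ignores the size of the change, and the libraries form only 3 groups, so that r above 0.98 describes a shared order of the states and no more. For WNT16 these were EIF2AK4 (r = 0.999), ANGPTL4 (r = 0.999) and APLP1 (r = 0.998), for WNT2 ANP32B (0.999), WARS (0.999) and MARS (0.998), and for SFRP1 HMGA2 (0.999), RGS4 (0.999) and CPA4 (0.998). HMGA2 read 148, 350 and 21.4 CPM on average in young, old and ICM cells, a wider spread than that of SFRP1. For DKK1 the nearest were NBR1 (0.991), SIL1 (0.986) and IGIP (0.985).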

How the data were processed

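Ribo-seq and poly(A) mRNA-seq libraries were made from the same cycloheximide lysates of 3 cultures for each of young, old and ICM cells. The deposited values are estimated counts per gene symbol and transcript region, made by the authors; some are not whole, and the step that divided reads between features is not given in the sources used here. The labels' processing notes list STAR 2.6.0c, featureCounts, DESeq2, deepTools and GRCh37 without roles. Counts were rounded. Footprints are CDS reads, and mRNA is the sum of 5′ UTR, CDS and 3′ UTR reads, as in the study's methods. All genes passing edgeR's filterByExpr were fitted (edgeR 4.0.16 in R 4.3.3, TMM scaling, quasi-likelihood test, all 9 libraries of an assay, Benjamini-Hochberg adjustment over all genes tested, threshold 0.05). Changes are log2 of the fitted fold. CPM were computed with TMM-scaled library sizes, and coding lengths were taken from GENCODE on GRCh37. Translational efficiency was the interaction of assay and condition with a lysate block, for genes kept in each assay. The study used anota2seq with a threshold of 0.15, which was not run here.

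The members, the pathway list and the tests were chosen with earlier results of these data known. All members are named. From the list, up to 4 called genes each way per mRNA comparison are named, those that changed most among genes averaging 5 CPM or more, and every gene called in footprints. The p-values measure the spread between 3 cultures of 1 line. The intervals of changes and folds come from the same fits as the p-values, so they include that spread. Limits on zero counts cover counting error only. Replicate numbers are shared between groups, but same-numbered libraries did not deviate together (r from -0.0555 to 0.103), so no pairing was used. Libraries of the same lysate did not deviate together between assays either (r from -0.0795 to 0.136). The lysate block was kept for translational efficiency because of how the libraries were made, and results without it are also given. The edgeR fits of both assays and of translational efficiency were tested on simulated counts, for ICM against young cells only. Alternatives were DESeq2 1.42.0 (without a lysate term for translational efficiency), edgeR without the lysate block, RLE scaling, other filters, a replicate block, fits of 2 groups, each lysate left out, the 2 lysates that stand apart left out together, other thresholds, CDS-only mRNA, and Ribo-seq thinned to 46170 reads.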

Additional observations from a re-analysis of the deposited data

How the results depend on the processing

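Of 429 mRNA values of members recomputed under alternatives, 418 kept their direction and their side of the threshold. The exceptions were DKK1 between ICM and old cells, whose value near 0 changed sign (-0.00296 without a filter, -0.0473 with CDS reads only, -0.0623 to 0.0947 with each lysate left out), and 5 calls lost only where a log2 change over 0.6 was asked for. Footprint and translational efficiency calls moved more often. The members called in ICM against young footprints went from 2 to 1 with DESeq2, with the replicate block, with only the 2 groups compared and with a log2 change over 0.6, to 4 at an adjusted p under 0.15, and to 1 to 3 with each lysate left out. Over all genes tested, these settings called 688 of 4643, 741 of 4643, 813 of 3031, 1203 of 4643 and 1786 of 4643. With each lysate left out they were 619 of 3925 to 1758 of 7323. Thinned to the shallowest library, 3 members could be tested, and 0, 3 and 2 of them were called in ICM against young, old against young and ICM against old cells (0, 3 and 3 at an unadjusted p under 0.05, edgeR), as were 0, 3 and 2 genes of the pathway list. Of the 1163 genes tested in all, 289, 170 and 192 were called. Members called in old against young footprints numbered 3 to 5 with each lysate left out. Over all genes tested, 516 of 3909 to 2160 of 7248 were called.

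The pathway list counts moved as follows. In mRNA, a log2 change over 0.6 left 35 (old against young) and 24 (ICM against old), and 4289 and 3870 of all 13173 genes tested. In old against young footprints the count of 8 became 5 with DESeq2, with the replicate block and with a mean of at least 50 counts, 15 without a filter, 17 with only the 2 groups compared, and 4 to 12 with each lysate left out. Over all genes tested, these were 530 of 4643, 653 of 4643, 978 of 2143, 2044 of 13714, 3142 of 7521 and 516 of 3909 to 2160 of 7248. In ICM against young footprints the count of 3 became 5 without a filter and without the 2 lysates that stand apart, 6 at an adjusted p under 0.15, and 1 to 5 with each lysate left out. Over all genes tested, these were 1477 of 13714, 1553 of 8113, 1786 of 4643 and 619 of 3925 to 1758 of 7323. In ICM against old footprints the count of 7 became 4 with a mean of at least 50 counts and with only the 2 groups compared, and 4 to 8 with each lysate left out. Over all genes tested, these were 457 of 2143, 437 of 2847 and 332 of 3969 to 924 of 7323.

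For translational efficiency, members called in ICM against young cells were 1 with no replicate block (lysate block left out), 2 with DESeq2, which was also run without a lysate term, 1 at an adjusted p under 0.15 and 0 to 1 with each lysate left out. Over all genes tested, these were 305, 375 and 313 of 4618, and 33 of 3890 to 151 of 7289. In old against young cells 1 (APC) was called with no replicate block, by edgeR and by DESeq2, where 409 and 327 of 4618 genes were. The single call in ICM against old cells became 0 with a mean of at least 50 counts, where APC was not tested, and 0 to 1 with each lysate left out. The replicate block changed no other call of a member than those of WNT5A and SFRP1 footprints, and same-numbered libraries did not deviate together, so a call lost under it is not read as a weaker effect.

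Values that changed sign were all uncalled and close to 0 or poorly determined. With each lysate left out, footprints ran from -0.682 to 0.476 (DKK1, ICM against young), -1.12 to 0.0938 (DKK1, ICM against old) and -0.137 to 0.658 (WNT5B, ICM against young), and DKK1 was -0.0697 in ICM against young without a filter. Translational efficiency ran from -0.245 to 0.148 (SFRP1), -0.307 to 5.93 (WNT16) and -0.0417 to 0.292 (WNT5B) in old against young, from -0.165 to 0.0342 (WNT5A) and -0.756 to 6.50 (WNT16) in ICM against young, and from -0.230 to 0.231 (DKK3), -1.27 to 0.0395 (DKK1) and -0.930 to 1.40 (WNT16) in ICM against old cells. Other settings gave -0.309 (WNT16, old against young, DESeq2 without a lysate term), -0.0684 (WNT16, old against young, no replicate block), -0.00895 (SFRP1, old against young, RLE scaling), -0.0216 (DKK3, ICM against old, DESeq2 without a lysate term), -0.0296 (WNT5A, ICM against young, CDS reads only), and, without the 2 lysates that stand apart, -0.0520 (WNT5A, ICM against young) and -0.201 (DKK3, ICM against old). The cause of these changes was not tested.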

Other observations

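Further genes of the pathway list, averaging under 5 CPM, passed the test in mRNA; they were chosen after their values were seen. DKK2, an antagonist related to DKK1, had 2 reads in young, 217 in old and 7 in ICM libraries, or 0.0581, 6.47 and 0.198 CPM on average. It rose in old against young cells (adjusted p = 4.37e-11 by edgeR), and ICM against young cells did not pass (adjusted p = 0.238). WNT10B, a ligand of the canonical branch, had 2, 58 and 5 reads, and also passed in old against young cells (adjusted p = 4.53e-07). DKK2 and WNT10B passed the filter on low counts through their old libraries. Their comparisons of old with young cells therefore follow in part from that filter, and these p-values are no independent support. WNT7B fell in both comparisons with young cells (log2 change -3.01 in old, -3.63 in ICM cells), and FZD9, a Frizzled receptor, rose in both (0.61 and 2.05). In translational efficiency 21 list genes were tested, and 2 (9.52%) passed in ICM against young cells, where 2.38% of the 4618 genes tested did. Both are receptors: FZD2 with a log2 change of 1.08 (SE 0.29, adjusted p = 0.0392) and PTK7 with 1.00 (SE 0.26, adjusted p = 0.0328). These 2 calls were not rechecked under the alternative settings. The mRNA of FZD2 and of PTK7 fell in that comparison (-0.57 and -1.23).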
